A study of Homo sapiens with 12 samples.

Results

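The let-7 and miR-98 family was followed here through its 9 members on the miRNA PCR array, hsa-let-7a-5p, hsa-let-7b-5p, hsa-let-7c-5p, hsa-let-7d-5p, hsa-let-7e-5p, hsa-let-7f-5p, hsa-let-7g-5p, hsa-let-7i-5p and hsa-miR-98-5p, named below without the species prefix. They were taken by name as the 5p arms of let-7 and miR-98, and all 9 were found on the array, which holds 363 other miRNA assays. Total RNA came from OCI-My5 cells, a human multiple myeloma cell line, in 12 conditions with 1 array each. My5.LV cells hold the empty lentiviral vector, have a low level of cereblon (CRBN) and are resistant to immunomodulatory drugs (IMiDs), whereas My5.CRBN cells carry a His-tagged human CRBN cDNA in the same kind of vector and are IMiD-sensitive. Cells of both lines were un-treated, received lentivirus with AGO2-sh72 (an shRNA against AGO2) or with an epitope-tagged AGO2 cDNA, were given lenalidomide at 10 μM over 3 days (Len3d) or 5 days (Len5d), or received AGO2 cDNA and lenalidomide for 3 days. AGO2 is called EIF2C2 in the sample labels, and the arrays measured neither AGO2 nor CRBN. None of the 12 arrays is of cells infected with an empty shRNA or cDNA vector in this step. The effect of AGO2-sh72 or AGO2 cDNA thus cannot be told apart from that of the infection and selection. None is labelled as vehicle-treated or as un-treated over 3 or 5 days. The effect of lenalidomide thus cannot be told apart from that of vehicle or time in culture.

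let-7 miRNAs are among the most conserved miRNAs of animals and are abundant in most differentiated cells. They share a seed, the bases that pair with target mRNAs, and are known to repress growth-promoting genes such as RAS genes, MYC and HMGA2, while LIN28 proteins block the processing of many of their precursors. AGO2 is the argonaute protein that holds the mature miRNA strand in the silencing complex, and CRBN is the substrate receptor of the E3 ubiquitin ligase to which lenalidomide binds.

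The mature sequences are shown because the members differ by so few bases. They are taken from RefSeq (GRCh38.p14), where all 9 names matched, and run 5′ to 3′ with the seed (bases 2 to 8) in capitals. Differences from let-7a-5p are given with the base of let-7a-5p first, the position counted from 1 at the 5′ end, and then the base of the other member.
let-7a-5p: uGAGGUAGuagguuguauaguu
let-7b-5p (A17G, A19G): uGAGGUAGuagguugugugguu
let-7c-5p (A19G): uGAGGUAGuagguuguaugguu
let-7d-5p (U1A, U16C): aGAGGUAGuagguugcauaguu
let-7e-5p (U9G): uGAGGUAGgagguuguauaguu
let-7f-5p (G12A): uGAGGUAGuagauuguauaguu
let-7g-5p (G12U, U18C): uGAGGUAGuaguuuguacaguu
let-7i-5p (G12U, A17G, U18C, A19U): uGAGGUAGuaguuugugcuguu
miR-98-5p (G11A, A19U): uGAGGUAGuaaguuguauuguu

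All 9 members are 22 bases long and have the seed GAGGUAG. Of the 2370 mature human miRNA names in the RefSeq table, 11 have this seed, and the other two, miR-4458 and miR-4500, have no assay on the array. Among the 36 pairs of members, 4 pairs differ by 1 base and 10 by 2 bases, and the most distant pair, let-7d-5p and let-7i-5p, differs by 6. Whether an assay also detects a member that differs by 1 or 2 bases was not tested, so a value below is that of an assay.

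The members come from 12 hairpin genes on 8 chromosomes of GRCh38.p14. The let-7a-5p sequence has 3 genes, MIRLET7A1 (chr9:94175957-94176036, plus strand), MIRLET7A2 (chr11:122146522-122146593, minus strand) and MIRLET7A3 (chr22:46112749-46112822, plus strand). MIRLET7A1 lies in the lncRNA gene MIRLET7A1HG together with MIRLET7F1 (chr9:94176347-94176433) and MIRLET7D (chr9:94178834-94178920), and MIRLET7A3 lies beside MIRLET7B (chr22:46113686-46113768) in MIRLET7BHG. MIRLET7C (chr21:16539828-16539911, plus strand) is 659 bp from MIR99A in the lncRNA gene MIR99AHG, and MIRLET7E (chr19:51692786-51692864, plus strand) is 105 bp from MIR99B within the span of the protein-coding gene SPACA6. MIRLET7F2 (chrX:53557192-53557274) and MIR98 (chrX:53556223-53556341) are 851 bp apart on the minus strand, both within the protein-coding gene HUWE1. MIRLET7G (chr3:52268278-52268361, minus strand) lies within WDR82 and MIRLET7I (chr12:62603686-62603769, plus strand) within MIRLET7IHG, with no other hairpin within 10 kb of either. The mature let-7a-5p and let-7f-5p assays cannot tell their genes apart.

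Each well gave a threshold cycle (Ct), the PCR cycle at which its signal crosses the threshold, and the level of a miRNA was the mean Ct of 6 small-RNA control wells (SNORD61, SNORD68, SNORD72, SNORD95, SNORD96A and RNU6-2) minus its Ct. A level is thus on a log2 scale, and levels of different assays were not ranked because assays can differ in efficiency. The log2 fold change is the difference in level between a pair of arrays, and 3 fold, the threshold used by the study, is 1.58 on this scale. With 1 array per condition there is no replicate and no test, and the spread given beside a change is the SD of the 6 control wells' own log2 fold changes, which covers neither cultures nor RNA preparations. Duplicate wells of the reverse transcription and positive PCR controls differed by 0.187 and 0.383 cycles (root mean square over 12 arrays). The mean control Ct ranged from 18.7 to 21.9, and 324 to 367 miRNAs were detected below a Ct of 35 per array. The members had Ct values from 17.1 to 27.4, under 35 on all 12 arrays, so none rested on the limit of detection.

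The blood-lineage markers miR-142-3p (Ct 12.4 to 18.6) and miR-142-5p (19.1 to 23.4) were abundant on all 12 arrays. The liver miRNA miR-122-5p lay between 30.7 and 39.2 and was under 35 on 9 arrays, and the muscle miRNA miR-206 lay between 28.6 and 32.9. Muscle miR-133a-3p (22.2 to 27.7) and epithelial miR-200c-3p (23.5 to 27.2) and miR-141-3p (24.4 to 28.2) were detected at Ct values that overlap those of the members. Their part in the results was not tested.

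In un-treated cells the family had nearly the same levels in both lines. let-7a-5p was at 1.18 (My5.LV) and 1.12 (My5.CRBN), let-7b-5p at -1.46 and -1.39, and let-7c-5p at -2.80 and -2.82. For let-7d-5p the levels were -0.12 and -0.18, for let-7e-5p -1.91 and -1.85, and for let-7f-5p 1.48 and 1.59. let-7g-5p was at -0.16 and 0.11, let-7i-5p at -0.81 and -0.63, and miR-98-5p at -3.58 and -3.44. The log2 fold changes of My5.CRBN against My5.LV cells thus ran from -0.06 (let-7a-5p) to 0.27 (let-7g-5p), with a family median of 0.07 against -0.06 over all miRNAs of the array and a control-well SD of 0.22. None of the 9 members differed by 3 fold, where 4.03% of all miRNAs did so in either direction.

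**Figure D1:**
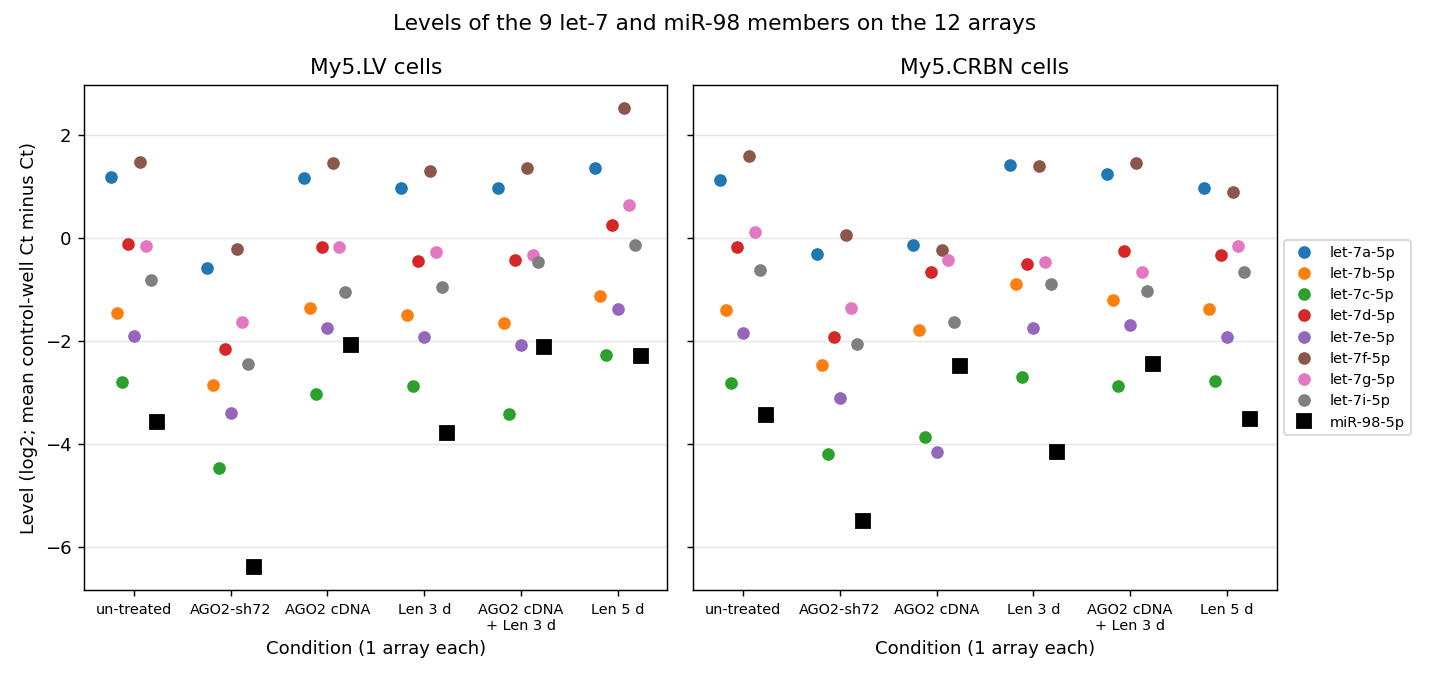
Levels (log2, mean control-well Ct minus Ct) of the 9 members in My5.LV cells (left) and My5.CRBN cells (right) in 6 conditions with 1 array each; each point is 1 assay on 1 array, miR-98-5p as black squares. With AGO2-sh72 all 9 members lie below their un-treated level in both lines, and with AGO2 cDNA miR-98-5p lies above its un-treated level.

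The plot of levels by condition shows 3 arrays with a low family, both AGO2-sh72 arrays and the array of My5.CRBN cells with AGO2 cDNA (My5.CRBN.AGO2). The median level of the 9 members, which was that of let-7i-5p on 11 of the 12 arrays, was -2.44 in My5.LV.sh72, -2.06 in My5.CRBN.sh72 and -1.63 in My5.CRBN.AGO2. The next array was My5.LV.AGO2 with -1.04. The gaps between these 4 arrays, 0.39, 0.43 and 0.59, each exceeded the control-well SD of the pair of arrays (0.21, 0.39 and 0.52). The median of the members' log2 fold changes is a different measure from the gap. With the control wells it was 0.29 (My5.CRBN.sh72 against My5.LV.sh72), 0.43 (My5.CRBN.AGO2 against My5.CRBN.sh72) and -0.59 (My5.CRBN.AGO2 against My5.LV.AGO2). With the global mean as normalizer the same medians were 0.040, 0.12 and -0.096. From My5.LV.AGO2 the order went through My5.CRBN.AGO2+Len3d (-1.02), My5.LV+Len3d (-0.95), My5.CRBN+Len3d (-0.89) and un-treated My5.LV (-0.81). It ended with My5.CRBN+Len5d (-0.66), un-treated My5.CRBN (-0.63), My5.LV.AGO2+Len3d (-0.46) and My5.LV+Len5d (-0.14). Among these, neighbours differed by less than their control-well SD except for un-treated My5.LV and My5.CRBN+Len5d, where the gap of 0.149 was about the SD of 0.146.

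With AGO2-sh72, all 9 members were lower in My5.LV cells than without it. let-7a-5p was at 1.18 in un-treated and -0.58 in AGO2-sh72 treated cells, let-7f-5p at 1.48 and -0.21, and let-7d-5p at -0.12 and -2.16, the members with genes in the chromosome 9 cluster. Among the members from other loci, let-7b-5p was at -1.46 and -2.86, let-7c-5p at -2.80 and -4.46, and let-7e-5p at -1.91 and -3.41. let-7g-5p was at -0.16 and -1.64, let-7i-5p at -0.81 and -2.44, and miR-98-5p at -3.58 and -6.40. The 8 let-7 members moved by similar amounts, from -1.40 (let-7b-5p) to -2.05 (let-7d-5p) with an SD of 0.20 among them, whereas miR-98-5p was lower by the most, with a log2 fold change of -2.82. The family median was -1.66, a 3.16-fold lower level, against a control-well SD of 0.51, of which RNU6-2 made the largest part (its own log2 fold change against the mean of the control wells was 0.98).

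Of the 9 members, 6 were lower by 3 fold or more after AGO2-sh72 in My5.LV cells (let-7a-5p, let-7c-5p, let-7d-5p, let-7f-5p, let-7i-5p and miR-98-5p), where 23.7% of all miRNAs were. miRNAs of similar level, the 58 non-members whose mean Ct lay within the range of the members' means (19.1 to 23.7), shifted by -1.65 in the median, and 32 of them (55.2%) were at least 3 fold lower. The family median differed from theirs by -0.0076, so its shift was that of other miRNAs of its level, and the median over all miRNAs was -0.79. The number of members past 3 fold depended on the normalizer. It was 9 with RNU6-2 alone, 2 with the 5 SNORD wells, and 1, miR-98-5p, with the global mean, taken over the miRNAs that stayed below a Ct of 35 throughout.

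In My5.CRBN cells AGO2-sh72 went with the same direction for all 9 members and smaller differences. The level of let-7a-5p was 1.12 in un-treated and -0.32 in AGO2-sh72 treated cells, that of let-7d-5p -0.18 and -1.93, and that of let-7f-5p 1.59 and 0.06. miR-98-5p was at -3.44 and -5.50. The log2 fold changes of the 8 let-7 members ran from -1.08 (let-7b-5p) to -1.75 (let-7d-5p), again with an SD of 0.20, and that of miR-98-5p was -2.06. In both lines let-7b-5p thus differed least, let-7d-5p most among the let-7 members, and miR-98-5p most of all. The family median was -1.44, a 2.71-fold lower level, with a control-well SD of 0.30, against -0.52 over all miRNAs and -1.14 over the 58 miRNAs of similar level.

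let-7d-5p and miR-98-5p were lower by 3 fold or more with AGO2-sh72 in My5.CRBN cells, 2 of 9 members, where 12.9% of all miRNAs and 20.7% of those of similar level were. With RNU6-2 alone as normalizer 8 members passed, and with the global mean 0. When the AGO2-sh72 arrays of both lines were compared with each other, the members were 0.23 (let-7d-5p) to 0.90 (miR-98-5p) higher in My5.CRBN cells on the log2 scale. Their median was 0.29 against a control-well SD of 0.21, the median of miRNAs of similar level was 0.31, and 0 of 9 members but 4.03% of all miRNAs differed by 3 fold in either direction.

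**Figure D2:**
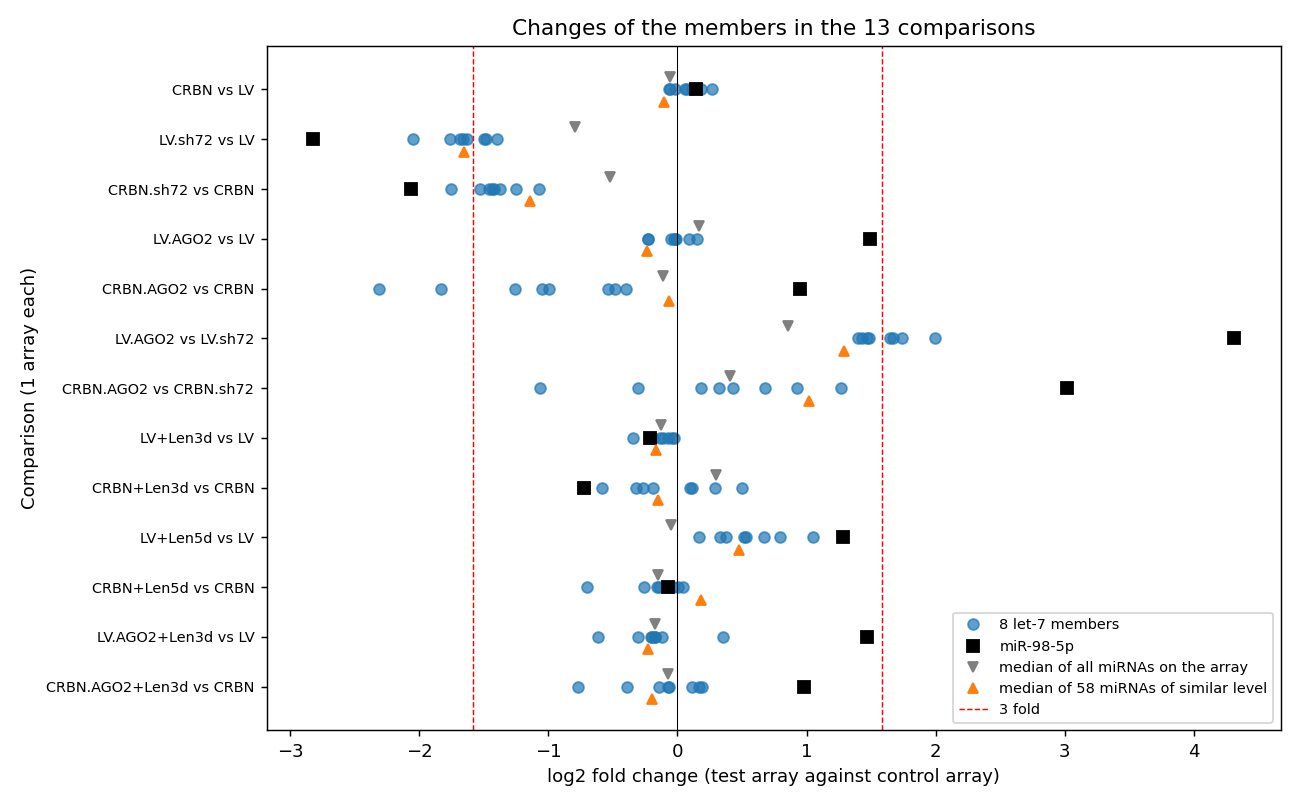
log2 fold changes (x axis) of the 8 let-7 members (blue circles) and miR-98-5p (black squares) in 13 comparisons of 1 array each (y axis), with the medians of all miRNAs (grey) and of 58 miRNAs of similar level (orange) and 3 fold as dashed lines. The blue circles lie close together and left of the grey medians in both AGO2-sh72 rows, spread widely in My5.CRBN.AGO2, and the black squares lie apart to the right wherever AGO2 cDNA was given.

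AGO2 cDNA in My5.LV cells left the let-7 levels near those of un-treated cells, while miR-98-5p was higher. The log2 fold changes of the 8 let-7 members ran from -0.23 (let-7c-5p and let-7i-5p) to 0.15 (let-7e-5p), all within the control-well SD of 0.41. miR-98-5p was at -3.58 without and -2.09 with AGO2 cDNA, a log2 fold change of 1.49. None of the 9 members differed by 3 fold, where 6.72% of all miRNAs did so in either direction. miR-98-5p passed 3 fold with the 5 SNORD wells as normalizer, but had 0.85 with RNU6-2 alone. The family median was -0.02, against 0.17 over all miRNAs and -0.24 over those of similar level.

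The same cDNA in My5.CRBN cells went with lower levels of all 8 let-7 members and with large differences among them. This array had the highest mean control Ct of the 12 (21.9) and the fewest miRNAs under Ct 35 (324, where the other arrays had 348 or more), and the part of this in the result was not tested. let-7e-5p was at -1.85 in un-treated and -4.16 in AGO2 cDNA treated cells, and let-7f-5p at 1.59 and -0.24, log2 fold changes of -2.31 and -1.83. These were the members at least 3 fold lower, 2 of 9, where 6.18% of all miRNAs and 5.17% of those of similar level were. Both passed under every normalizer tried, but let-7f-5p lay at the threshold with the global mean (-1.589, where 3 fold is 1.585). let-7a-5p (-1.26), let-7c-5p (-1.05) and let-7i-5p (-0.997) were lower by amounts close to each other, and let-7g-5p (-0.53), let-7d-5p (-0.48) and let-7b-5p (-0.40) by less than the control-well SD of 0.56. miR-98-5p was 0.95 higher. The SD among the 8 let-7 members was 0.68, against 0.13 in the comparison of My5.LV.AGO2 with My5.LV cells, and the family median of -0.997 compares with -0.11 over all miRNAs and -0.07 over those of similar level.

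The unequal let-7 levels of the My5.CRBN.AGO2 array were also seen within the array, where no normalizer enters. The Ct of let-7e-5p was 2.38 cycles above that of let-7b-5p on this array and 0.25 to 0.86 cycles above it on the other 11. let-7e-5p differs from let-7a-5p by the single change U9G, and its Ct was 4.03 cycles above that of let-7a-5p here and 2.73 to 3.16 above it elsewhere. The Ct of let-7f-5p was 0.10 cycles above that of let-7a-5p here, and from -1.17 to 0.09 cycles away on the other arrays. Relative to let-7g-5p, the Ct of let-7f-5p was 0.19 cycles lower here and 1.04 to 2.11 cycles lower elsewhere. Thus let-7e-5p stood out against both of its partners by more than the root mean square difference of the duplicate wells. let-7f-5p did so against let-7g-5p but not against let-7a-5p, which was itself lower on this array. The largest single difference of duplicate wells was 0.84 cycles. The distances from the other arrays were about that size for let-7e-5p against let-7a-5p and for let-7f-5p against let-7g-5p. In the My5.CRBN cells that received AGO2 cDNA and 3 days of lenalidomide, let-7e-5p was at -1.69, near the -1.85 of un-treated My5.CRBN cells. let-7f-5p was at 1.45 against 1.59, and let-7g-5p at -0.66 against 0.11. The SD among the 8 let-7 log2 fold changes was 0.32 there and 0.68 with AGO2 cDNA alone. The large differences among the let-7 members thus rest on the single My5.CRBN.AGO2 array.

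When the AGO2 cDNA arrays of both lines were compared, the log2 fold changes of My5.CRBN.AGO2 against My5.LV.AGO2 cells were -2.40 for let-7e-5p and -1.70 for let-7f-5p. These were 2 of 9 members at least 3 fold lower, where 9.14% of all miRNAs were, and the count was 1 with the global mean or with RNU6-2 alone. The family median was -0.59 with a control-well SD of 0.52, against -0.40 over all miRNAs and -0.05 over those of similar level. With the global mean as normalizer the family median was -0.096.

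The AGO2 cDNA arrays were also compared with the AGO2-sh72 arrays of the same line, which share those arrays with the comparisons above and are no separate evidence. In My5.LV cells the 9 members were higher with AGO2 cDNA by 1.40 (let-7i-5p) to 1.99 (let-7d-5p) for let-7 and by 4.32 for miR-98-5p, with a family median of 1.65 and a control-well SD of 0.23. Members at least 3 fold higher numbered 5 of 9 (let-7a-5p, let-7d-5p, let-7e-5p, let-7f-5p and miR-98-5p), where 22.3% of all miRNAs and 34.5% of those of similar level were, and 1 with the global mean. The median was 0.86 over all miRNAs and 1.29 over those of similar level. In My5.CRBN cells the members ran from -1.06 (let-7e-5p) to 3.01 (miR-98-5p) around a median of 0.43, with a control-well SD of 0.39. miR-98-5p was the single member at least 3 fold higher, where 10.2% of all miRNAs were, and its count did not depend on the normalizer.

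miR-98-5p was described next against the other members of the same array, a difference that needs no control wells. Its level minus the median of the 8 let-7 levels was -3.10 in un-treated My5.LV and -3.04 in un-treated My5.CRBN cells. With AGO2 cDNA the difference was -1.48 in My5.LV.AGO2 and -1.35 in My5.CRBN.AGO2, and with AGO2 cDNA and lenalidomide it was -1.67 and -1.62. With AGO2-sh72 it was -4.10 (My5.LV.sh72) and -3.51 (My5.CRBN.sh72). The arrays with lenalidomide alone lay at -3.09 (My5.LV+Len3d), -3.46 (My5.CRBN+Len3d), -2.36 (My5.LV+Len5d) and -3.01 (My5.CRBN+Len5d). All 4 AGO2 cDNA arrays (-1.67 to -1.35) were thus above all 8 others (-4.10 to -2.36), with medians of -1.55 and -3.09. On this scale 0.806% of all miRNAs, namely miR-98-5p, miR-107 and miR-301a-3p, had all 4 AGO2 cDNA arrays above the rest. On the normalized level miR-98-5p overlapped, since My5.LV+Len5d, at -2.30, lay within the AGO2 cDNA arrays (-2.49 to -2.09). On My5.CRBN.AGO2 the let-7 median was itself lower, at -1.14 against -0.40 in un-treated My5.CRBN cells. Part of the difference on that array thus came from let-7.

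**Figure D3:**
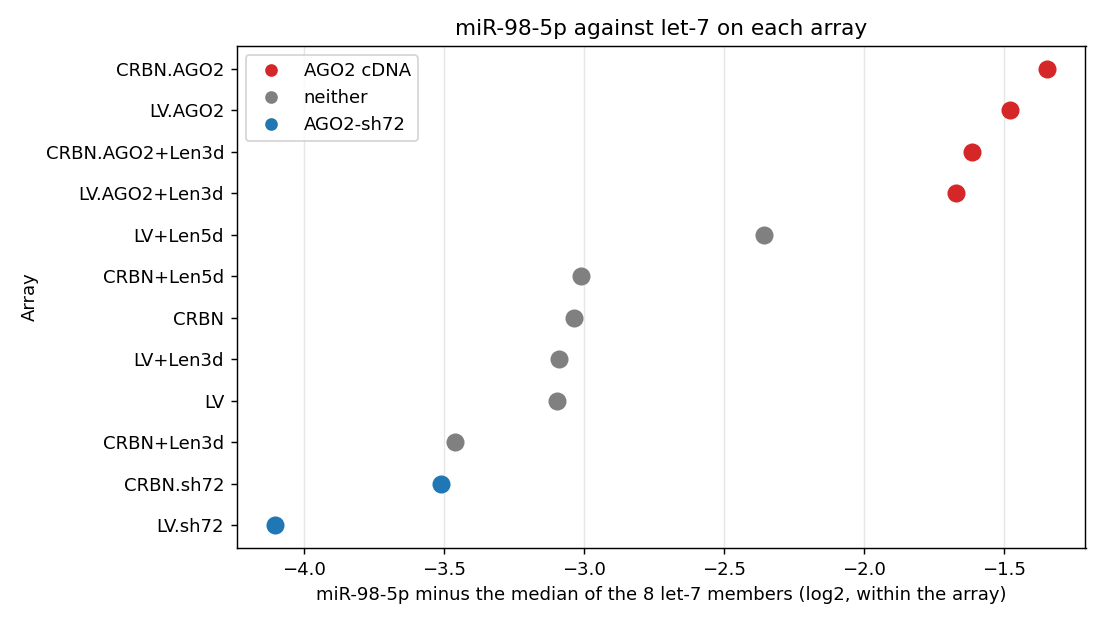
Level of miR-98-5p minus the median level of the 8 let-7 members of the same array (x axis, log2) for each of the 12 arrays (y axis), coloured by AGO2 construct. The 4 AGO2 cDNA arrays lie between -1.67 and -1.35 and the arrays with AGO2-sh72 at -4.10 and -3.51, the latter just below the lowest of the 6 arrays with neither construct (-3.46 to -2.36).

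MIR98 shares the HUWE1 locus with MIRLET7F2, and let-7f-5p, which can also come from chromosome 9, did not follow miR-98-5p in the AGO2 cDNA arrays. In My5.LV.AGO2 cells the log2 fold changes against un-treated cells were 1.49 for miR-98-5p and -0.01 for let-7f-5p. In My5.CRBN.AGO2 cells they were 0.95 and -1.83.

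The 3p arms of the let-7d and let-7g hairpins are the only other let-7 or miR-98 assays on the array. The 3p arm is the opposite strand of the same precursor and is usually the less abundant product. The sequences are shown because the arms differed from each other with AGO2-sh72, and both have seeds (capitals, bases 2 to 8) unlike that of the family.
let-7d-3p: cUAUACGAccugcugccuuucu
let-7g-3p: cUGUACAGgccacugccuugc

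In My5.LV.sh72 cells let-7d-5p had a log2 fold change of -2.05 and let-7d-3p of -0.71, and for let-7g the values were -1.49 and -0.28. My5.CRBN.sh72 cells had -1.75 and -0.33 for let-7d, and -1.46 and -0.23 for let-7g. The 5p arms were thus lower than their 3p partners by 1.21 to 1.42 more on the log2 scale in these 4 pairs. The Ct of let-7d-3p lay 2.42 and 2.61 cycles above that of let-7d-5p on the AGO2-sh72 arrays and 3.29 to 4.16 cycles above it on the other 10. For let-7g the difference was 5.40 and 5.26 cycles on the AGO2-sh72 arrays and 5.50 to 7.33 on the others. The AGO2-sh72 arrays were thus the lowest for both hairpins, apart from the rest for let-7d but, for let-7g, closer to the next array, My5.CRBN+Len3d at 5.50 cycles, than duplicate wells were to each other. The 3p arms had higher Ct values than the 5p arms throughout (22.3 to 28.7 against 18.8 to 23.1). With AGO2-sh72 the median was -0.79 (My5.LV) and -0.52 (My5.CRBN) over all miRNAs, and -1.65 and -1.14 over those of similar level. Single miRNAs of higher Ct varied in My5.LV cells, with -1.88 for miR-100-5p (Ct 26.2 in un-treated cells) and 0.36 for miR-99b-5p (30.05). The part of the Ct level in the arm difference was not tested.

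**Figure D4:**
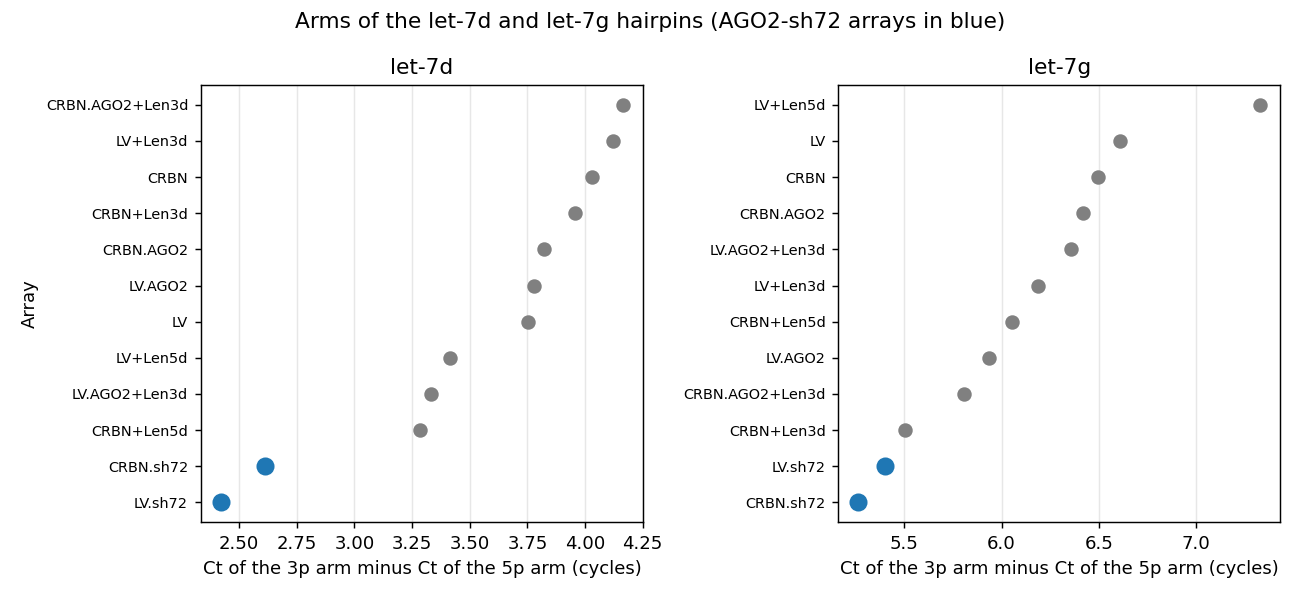
Ct of the 3p arm minus Ct of the 5p arm (x axis, cycles) of the let-7d (left) and let-7g (right) hairpins on the 12 arrays (y axis), AGO2-sh72 arrays in blue. The AGO2-sh72 arrays have the smallest differences for both hairpins, at 2.42 and 2.61 cycles for let-7d and 5.40 and 5.26 for let-7g.

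Further 5p miRNAs with genes at or on the chromosomes of let-7 loci were set beside the members. Against un-treated My5.LV cells, miR-99a-5p, next to let-7c on chromosome 21, had a log2 fold change of -1.90 with AGO2-sh72, and let-7c-5p had -1.66. miR-100-5p, whose gene lies beside MIRLET7A2, had -1.88. miR-125b-5p, which has no gene within 10 kb of a let-7 gene, had -1.52. In My5.CRBN cells with AGO2-sh72 the values were -1.78 for miR-99a-5p, -1.74 for miR-100-5p and -1.34 for miR-125b-5p. miR-99b-5p, from the let-7e locus, had 0.36 (My5.LV) and 0.66 (My5.CRBN), at a Ct of 30.05 and 30.8 in un-treated cells. miR-125a-5p, from the same locus, had 0.46 and -1.31, at a Ct of 33.9 and 31.9 in un-treated cells. let-7e-5p had -1.50 and -1.25. With AGO2 cDNA in My5.CRBN cells miR-99b-5p had a log2 fold change of 0.40 and miR-125a-5p, from the same locus, of -1.06 (Ct 31.9 in un-treated cells), where let-7e-5p had -2.31.

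Other abundant seed families had similar medians to let-7 with AGO2-sh72. In My5.LV cells the medians were -1.83 for 5 members of the miR-17 family, -1.76 for 5 of the miR-30 family and -1.42 for 5 of the miR-15/16 family, against -1.66 for let-7 and miR-98. In My5.CRBN cells they were -1.56, -1.13 and -1.17 against -1.44. The families differed more on the array of My5.CRBN cells with AGO2 cDNA, with -0.53, 0.08 and 0.01 against -0.997. Over all 12 arrays, the miRNAs whose centred levels were most like the centred family median, of 305 non-members under Ct 35 on all arrays, were miR-140-5p, miR-195-5p, miR-27b-3p, miR-106b-5p and miR-374a-5p. Their root mean square differences from the family median were 0.20 to 0.29 on the log2 scale, where the median over all non-members was 0.72. The members apart from let-7i-5p, which was nearly the median itself, lay at 0.26 (let-7g-5p) to 0.48 (let-7e-5p), and miR-98-5p at 0.95.

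Lenalidomide for 3 days left the family close to its un-treated level in My5.LV cells. The log2 fold changes ran from -0.34 (let-7d-5p) to -0.02 (let-7e-5p), below 0 for all 9 members, with a median of -0.14 against a control-well SD of 0.18. All miRNAs had a median of -0.12. None of the 9 members differed by 3 fold, where 1.08% of all miRNAs did so in either direction. In My5.CRBN cells the members lay on both sides, from -0.72 (miR-98-5p) and -0.58 (let-7g-5p) to 0.29 (let-7a-5p) and 0.50 (let-7b-5p), with a median of -0.19 and a control-well SD of 0.22. Again 0 of 9 members differed by 3 fold, against 11.6% of all miRNAs in either direction, whose median was 0.30. The 58 miRNAs of similar level had a median of -0.15, close to that of the family, and 1 of them (1.72%) passed 3 fold. Between the lines at 3 days of lenalidomide, the members of My5.CRBN cells differed from those of My5.LV cells by -0.37 (miR-98-5p) to 0.61 (let-7b-5p), 0 of 9 by 3 fold, where 9.95% of all miRNAs did in either direction.

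After 5 days of lenalidomide all 9 members were higher in My5.LV cells. let-7f-5p was at 1.48 in un-treated and 2.53 in treated cells, let-7g-5p at -0.16 and 0.64, and miR-98-5p at -3.58 and -2.30, log2 fold changes of 1.05, 0.80 and 1.28. The other members ran from 0.17 (let-7a-5p) to 0.67 (let-7i-5p), and the family median of 0.53 compares with a control-well SD of 0.41 and a median of 0.48 over miRNAs of similar level. This array held the highest level of 6 members (let-7c-5p, let-7d-5p, let-7e-5p, let-7f-5p, let-7g-5p and let-7i-5p). The share of all miRNAs with their highest level there was not determined, so this count is not particular to the family. None of the 9 members passed 3 fold, where 18.5% of all miRNAs did so in either direction but 2 of the 58 of similar level (3.45%), both lower.

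In My5.CRBN cells after 5 days the family median was -0.08, with a control-well SD of 0.22. let-7f-5p was at 1.59 in un-treated and 0.89 in treated cells, a log2 fold change of -0.70. The other members ran from -0.26 (let-7g-5p) to 0.04 (let-7c-5p), near or within the spread of the control wells. Again 0 of 9 members but 18.5% of all miRNAs differed by 3 fold in either direction, and of the 58 miRNAs of similar level, whose median was 0.18, 4 were lower and 2 higher by 3 fold or more. Compared with My5.LV cells at the same time, all 9 members were lower in My5.CRBN cells, from -0.26 (let-7b-5p) to -1.64 (let-7f-5p), with a median of -0.55, a control-well SD of 0.43 and a median of -0.50 over miRNAs of similar level. let-7f-5p was the single member at least 3 fold lower, where 6.45% of all miRNAs were, and with the global mean or RNU6-2 alone as normalizer 0 members passed. Within the arrays, let-7f-5p had a Ct 1.17 cycles below let-7a-5p in My5.LV+Len5d and 0.09 cycles above it in My5.CRBN+Len5d, the lowest and the highest of the 11 arrays other than My5.CRBN.AGO2.

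With both AGO2 cDNA and 3 days of lenalidomide, miR-98-5p was again the member farthest above un-treated cells. In My5.LV cells it was at -3.58 in un-treated and -2.11 in treated cells, a log2 fold change of 1.47, and the let-7 members ran from -0.62 (let-7c-5p) to 0.35 (let-7i-5p). The control-well SD was 0.67, mostly from RNU6-2 (1.16). None of the 9 members passed 3 fold, against 7.53% of all miRNAs in either direction. miR-98-5p passed it with the 5 SNORD wells or the global mean as normalizer, but had 0.30 with RNU6-2 alone. In My5.CRBN cells miR-98-5p was at -3.44 and -2.46, a log2 fold change of 0.98, the let-7 members ran from -0.77 (let-7g-5p) to 0.19 (let-7b-5p), and the control-well SD was 0.37. There 0 of 9 members passed 3 fold, against 5.11% of all miRNAs in either direction, and with RNU6-2 alone miR-98-5p had 0.30. The lines differed under this treatment by -0.56 (let-7i-5p) to 0.54 (let-7c-5p), 0 of 9 members by 3 fold, where 8.87% of all miRNAs did in either direction.

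**Figure D5:**
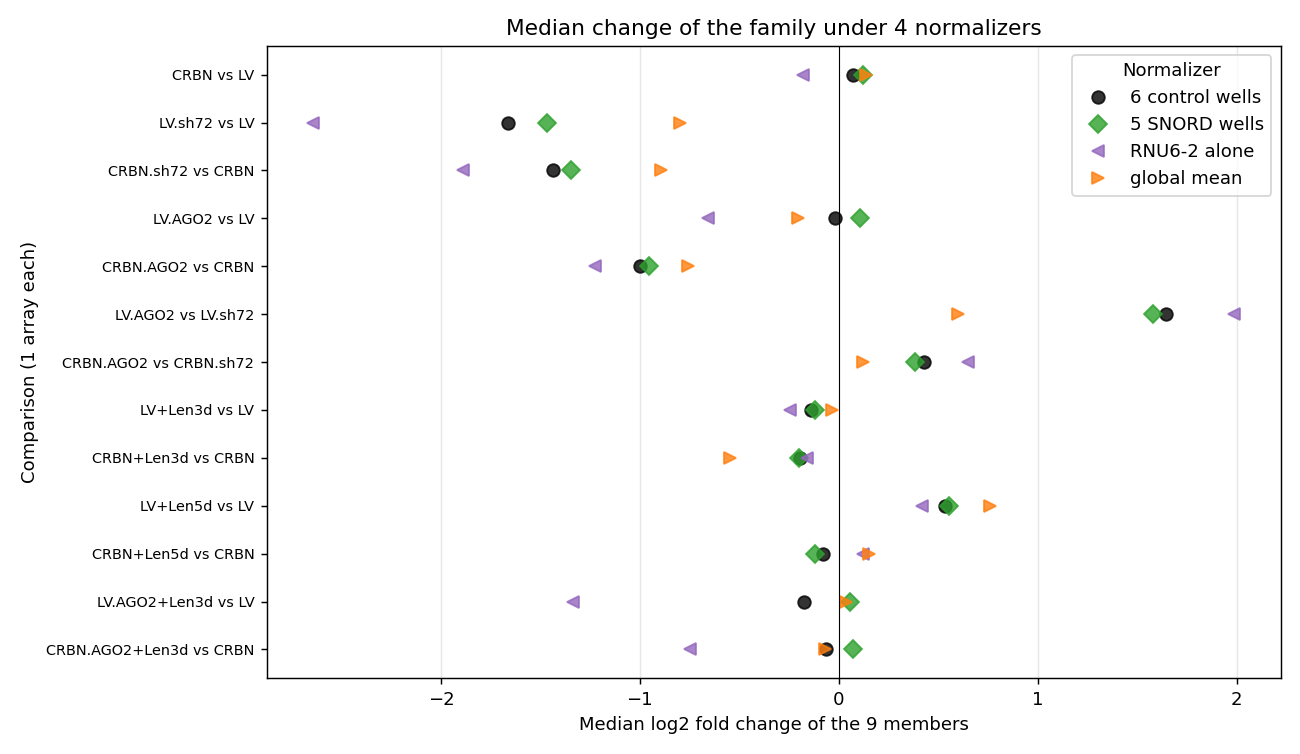
Median log2 fold change of the 9 members (x axis) in 13 comparisons (y axis, 1 array each) with the 6 control wells, the 5 SNORD wells, RNU6-2 alone or the global mean as normalizer. The AGO2-sh72 medians stay below 0 with each normalizer, between -2.64 and -0.80 for My5.LV cells and between -1.89 and -0.89 for My5.CRBN cells.

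The plot of family medians by normalizer shows how far the size of each difference depends on the reference wells. The medians with AGO2-sh72 kept their direction with all 4 normalizers and differed in size. For My5.CRBN.AGO2 against un-treated My5.CRBN cells the medians ran from -1.22 with RNU6-2 alone to -0.76 with the global mean. The median of My5.LV+Len5d against un-treated My5.LV cells was 0.76 with the global mean, about the size of the AGO2-sh72 medians with that normalizer, and that of My5.LV.AGO2+Len3d was -1.34 with RNU6-2 alone.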

How the data were processed

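Total RNA of 12 conditions (2 cell lines, 6 conditions each) was measured on miScript miRNA PCR Arrays with SYBR Green, 1 array per condition. The table of Ct values deposited by the authors holds un-normalized threshold cycles for every well. A second table of the authors holds linear ratios of 11 arrays to un-treated My5.LV cells, made with the kit maker's online software, and was not used.

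Ct values above 35 or undetermined were set to 35, and levels were taken against the mean of the 6 control wells. The 13 comparisons with control or opposite AGO2 arrays and 5 between the lines were given with no test, since each condition is a single array. The members, the neighbouring miRNAs, the other families and the markers were chosen with earlier results of these data known, and the 5 comparisons between treated lines were added after seeing the data. Non-members are named by a rule: other let-7 arms, 5 miRNAs of the miR-99, miR-100 and miR-125 families, and the 5 miRNAs most like the family median. miR-107 and miR-301a-3p were named after their values were seen. miR-106a-5p and miR-1-3p were listed but not found under these names. Alternatives were the global mean of 314 miRNAs, RNU6-2 alone, the 5 SNORD wells, each SNORD well dropped, a Ct cap of 32, the mean over members, miR-98-5p left out, and subtraction of the median of 58 miRNAs of similar level. The calculation was tested on known shifts and simulated noise put into the measured Ct values of My5.LV. That checks the calculation and not the results. Python 3.11.15, NumPy 2.4.6, pandas 2.3.3 and Matplotlib 3.10.9 were used. Each value rests on 1 well, which limits its precision.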

Additional observations from a re-analysis of the deposited data

Results flagged for a closer look

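For 3 members the change with lenalidomide lay in opposite directions in the lines, each change larger than the SD of its control wells (0.18 and 0.22 at 3 days, 0.41 and 0.22 at 5 days, for My5.LV and My5.CRBN cells). How many of all miRNAs would meet the same rule was not determined. The count is thus not evidence of a pattern particular to the family. With 1 array per condition the differences between the lines were not tested. let-7f-5p at 5 days had a log2 fold change of 1.05 (My5.LV) and -0.70 (My5.CRBN), a difference of -1.75. let-7g-5p at 5 days had 0.80 and -0.26, a difference of -1.05. let-7a-5p at 3 days had -0.22 and 0.29, a difference of 0.51. With the global mean as normalizer let-7a-5p had -0.11 and -0.063, so the opposite direction was lost. let-7g-5p in My5.CRBN cells at 5 days came to -0.024 with the global mean and -0.056 with RNU6-2 alone, within the control-well SD. let-7f-5p kept opposite directions with each normalizer. The 5-day difference of let-7f-5p involves the My5.LV+Len5d array. All 9 members and the median of miRNAs of similar level (0.48) were higher there than on the un-treated My5.LV array.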

How the results depend on the processing

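No replicate could be left out, since each condition is 1 array. No paired analysis of replicates was possible, for the same reason. The family medians of the 18 comparisons moved by less than the control-well SD with the 5 SNORD wells, with any SNORD well dropped, with a Ct cap of 32 and without miR-98-5p. With RNU6-2 alone they moved to -0.18 (My5.CRBN against My5.LV), -2.64 (My5.LV.sh72), -1.89 (My5.CRBN.sh72), -0.66 (My5.LV.AGO2), 1.99 (My5.LV.AGO2 against My5.LV.sh72), -1.34 and -0.75 (AGO2 cDNA with lenalidomide, My5.LV and My5.CRBN) and 0.57 (My5.CRBN.sh72 against My5.LV.sh72). With the global mean they moved to -0.80 (My5.LV.sh72), -0.89 (My5.CRBN.sh72), 0.60 (My5.LV.AGO2 against My5.LV.sh72), -0.55 and 0.15 (My5.CRBN+Len3d and +Len5d), 0.040 (My5.CRBN.sh72 against My5.LV.sh72) and -0.29 (My5.CRBN+Len3d against My5.LV+Len3d). By its construction this normalizer centres the bulk of the miRNAs, whose median went from -0.79 to 0.073 (My5.LV.sh72) and from -0.52 to 0.024 (My5.CRBN.sh72). Minus the median of miRNAs of similar level they were -0.0076 (My5.LV.sh72), -0.29 (My5.CRBN.sh72), 0.35 and -0.59 (AGO2 cDNA against AGO2-sh72, My5.LV and My5.CRBN), 0.053 (My5.LV+Len5d), -0.021 (My5.CRBN.sh72 against My5.LV.sh72) and -0.058 (the lines at 5 days). The mean over members was 1.91 for My5.LV.AGO2 against My5.LV.sh72, where miR-98-5p lies far above the rest. The cause of the other moves was not tested.

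Counts of members at least 3 fold lower with AGO2-sh72 were 6 in My5.LV cells (9 with RNU6-2, 2 with the SNORD wells, 1 with the global mean) and 2 in My5.CRBN cells (8, 2 and 0). Over all miRNAs these counts were 88 (201, 60 and 14) and 48 (104, 37 and 8). For My5.LV.AGO2 against My5.LV.sh72 the 5 members higher became 9, 4 and 1, and the 83 miRNAs 136, 73 and 9. My5.LV.AGO2+Len3d had 0 members past 3 fold, but 1 lower with RNU6-2 and 1 higher with the SNORD wells or the global mean. Of 118 log2 fold changes of single members, 63 moved past the control-well SD with RNU6-2 and 45 with the global mean. What limits precision is the single array and well per value.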

Other observations

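On the normalized level, the miRNAs with all 4 AGO2 cDNA arrays above the 8 others were miR-301a-3p, miR-378a-3p and miR-522-3p, named after their values were seen. miR-301a-3p was thus the miRNA with this separation on both scales, the normalized level and the level minus the let-7 median. When the family pattern was taken as the median of the members' centred levels, the 5 most similar non-members were miR-92b-3p, miR-374a-5p, miR-140-5p, miR-195-5p and miR-32-3p, and 3 of them (miR-140-5p, miR-195-5p and miR-374a-5p) were also among the 5 found with the centred median level.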
